A study of Mus musculus with 6 samples.

Results

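The genes described here are a set of 10 mouse genes known to respond to stretch or to the transcriptional coactivator YAP in heart muscle: Ankrd1, Ankrd2, Ankrd23, Csrp3, Xirp1, Xirp2, Fhl2, Ctgf, Cyr61 and Amotl2. The list was chosen on the basis of the sham and volume overload (VO) values of these same libraries, so their levels and differences are given as a description. Of the 10 genes, 9 had a row among the 54093 complete rows of the expression table. Ankrd2 was not analysed here. The libraries came from the right atrium (RA) of wild-type C57BL/6 mice, male or female, at postnatal day 21, with 3 sham and 3 VO libraries. VO was produced at postnatal day 7 by an arteriovenous fistula (ACF) between the abdominal aorta and the inferior vena cava, which raises the venous return to the whole heart, and the sham mice were operated on without a fistula. No source used here says whether a library came from a single animal or from several, so a p-value measures the spread between these libraries. The comparison asked how the RA transcriptome of young mice differed under a volume load begun in the neonatal period.

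Stretch reaches the cardiomyocyte nucleus along several routes. Ankrd1, Ankrd2 and Ankrd23 belong to the muscle ankyrin repeat proteins, which bind the elastic N2A part of titin and can also enter the nucleus. Csrp3 (muscle LIM protein) and Fhl2 are LIM-domain adaptors of the Z-disc and sarcomere, and the Xin repeat proteins Xirp1 and Xirp2 bind actin at intercalated discs. YAP and its relative TAZ, when not held in the cytoplasm by the Hippo kinases, bind TEAD factors on DNA, and Ctgf, Cyr61, Amotl2 and Ankrd1 are widely used readouts of that activity. Several of these genes are also read by serum response factor (SRF) and MEF2, the muscle transcription factors.

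The reference promoters show which of these factors' letters lie next to the genes. Of the 10 genes, 8 had an entry in the RefSeq promoter table of GRCm38.p6 (under the current name Ccn1 for Cyr61), with 11 windows of 300 bases, 250 before and 50 after each start site. Ctgf and Xirp1 had none. The TEAD motif CATTCC, searched on both strands, was present in 5 of the 11 windows and in 4 of the 8 genes, and in 14.7% of all 32851 promoter windows. The CArG box of SRF, searched by its consensus, was present in 2 windows, both of Fhl2, and in 1.63% of all windows. A MEF2 site was found in Fhl2 and Xirp2, and in 3.19% of all windows. The AP-1 motif TGANTCA was found in Xirp2, 107 bases before its start, and in 7.81% of all windows. The TATA box letters TATAAA, searched on both strands like every motif here, were found in Ankrd2, Fhl2 and Cyr61 and in 13.6% of all windows. In Ankrd2 and Cyr61 they lie on the strand of the gene. The Fhl2 match lies on the opposite strand, so it is not a TATA box in the direction of the gene, and it overlaps the MEF2 site there. Neither window of Csrp3 held any of the motifs. The first of the windows of Ankrd23 held its TEAD match 36 bases after the start, in an exon. The stretches around the TEAD, CArG and MEF2 matches that lie before a start are shown to let the reader compare the letters around each motif, with the motif in capitals on the strand of the gene:
Ankrd1, 210 bases before the start, chr19:36120037-36120066 (minus strand): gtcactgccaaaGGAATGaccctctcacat
Ankrd1, 123 bases before the start, chr19:36119950-36119979 (minus strand): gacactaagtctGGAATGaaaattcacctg
Ankrd23, 120 bases before the second start, chr1:36535842-36535871 (minus strand): cccagtgggccaCATTCCcagaacggtatt
Cyr61, 103 bases before the start, chr3:145650071-145650100 (minus strand): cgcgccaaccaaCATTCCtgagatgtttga
Amotl2, 65 bases before the start, chr9:102717727-102717756 (plus strand): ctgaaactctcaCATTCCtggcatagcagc
Fhl2 (CArG), 96 bases before the start, chr1:43196838-43196867 (minus strand): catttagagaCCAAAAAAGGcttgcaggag
Fhl2 (MEF2), 31 bases before the start, chr1:43196773-43196802 (minus strand): tggacatgccTTATTTATAActctgctgac
Fhl2 (CArG), 31 bases before the second start, chr1:43163973-43164002 (minus strand): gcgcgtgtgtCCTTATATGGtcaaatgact
Xirp2 (MEF2), 74 bases before the start, chr2:67445918-67445947 (plus strand): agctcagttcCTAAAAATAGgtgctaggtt
The stretches of Ankrd1, Amotl2 and the first start of Fhl2 also lie in an annotated exon of a longer transcript of the same gene. A match of letters is a description of the reference and not a measured binding site.

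All 9 measured genes had a lower mean in VO than in sham RAs. The values are FPKM (fragments scaled by gene length and by a factor per library), so levels can be compared between genes. Fold changes are on the log2(FPKM + 0.1) scale, VO against sham, from a limma fit over the 12627 genes with a mean of at least 1 FPKM. Of the 9 genes, 8 entered the fit and Ankrd23 was under that level. In the fit, none of the 8 had a Benjamini-Hochberg adjusted p under 0.05, with values from 0.275 to 0.488, where 0.00792% of all tested genes did. Of the 8, 7 were lower at an unadjusted p under 0.05 and 6 had no overlap between groups. Over all tested genes, 8.08% were lower and 3.89% higher at that p, 12.9% were lower and 8.25% higher without overlap, and 51.5% were lower by any amount. The median fold change was -0.56 for the 8 genes and -0.01 for all tested genes. Because the genes were picked from this contrast, nothing is read from these counts. Scaling by TPM shifted the median of all genes to 0.13 and that of the 8 genes to -0.42, and turned the split of all genes at an unadjusted p under 0.05 from 1020 lower and 491 higher to 489 lower and 1080 higher.

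**Figure D1:**
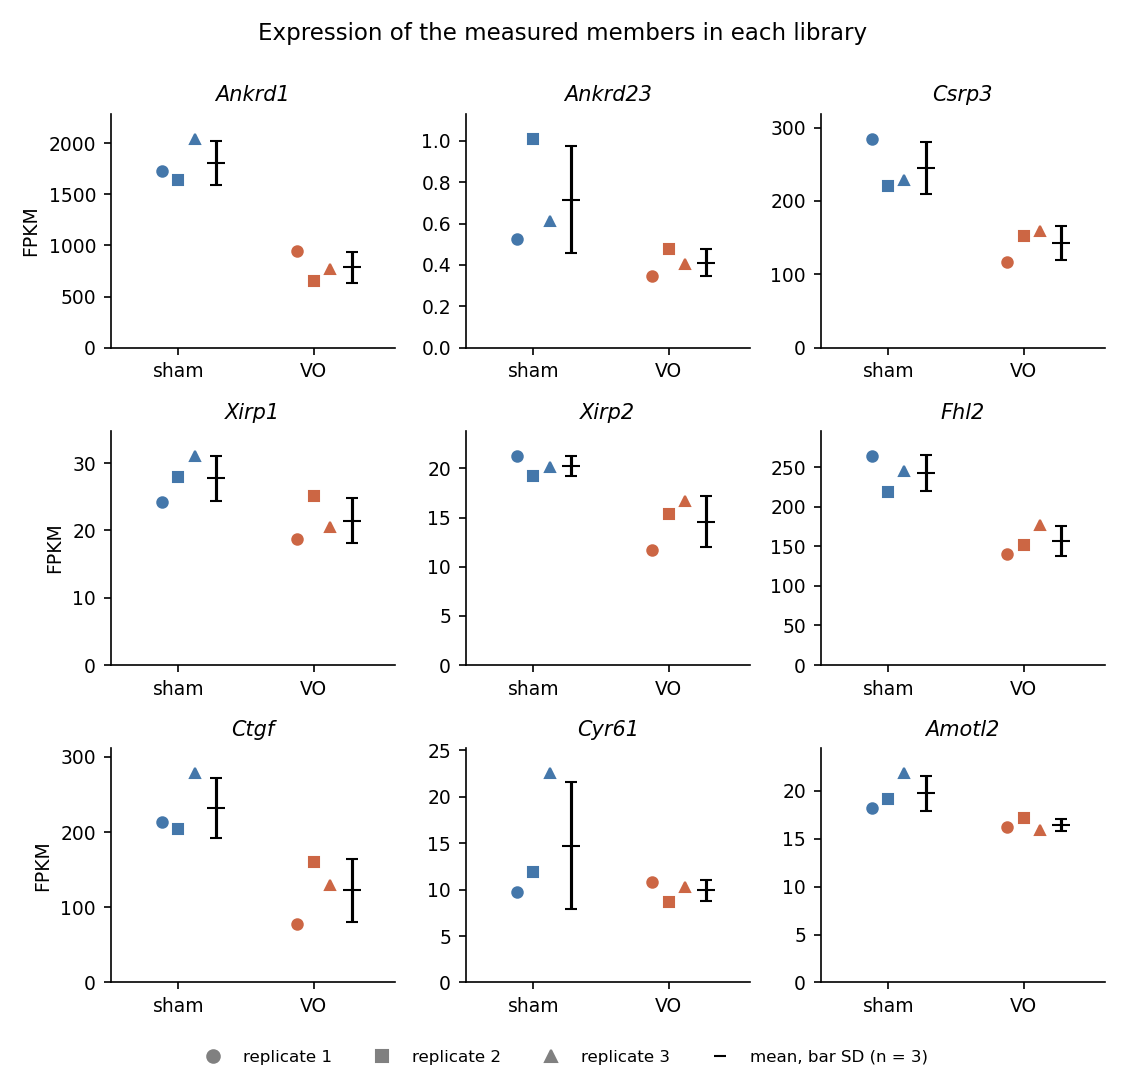
FPKM of each of the 9 measured genes in the 3 sham and 3 VO libraries, with 1 panel per gene, points for libraries and bars for the group mean with SD. The groups are separate for 7 genes, and for Xirp1 and Cyr61 the VO points reach into the sham range.

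Ankrd1 (ENSMUSG00000024803, chr19:36111965-36119844, minus strand, GRCm38) was by far the most abundant of the set and differed most. It read 1731, 1645 and 2045 FPKM in the sham libraries and 942, 648 and 766 FPKM in VO. The highest VO library was well below the lowest sham library, and sham 3 and VO 1 were the highest of their groups. Means were 1807 ± 211 FPKM in sham and 785 ± 148 FPKM in VO (SD, n = 3 each), and the log2 fold change was -1.21 (SE 0.20, 95% confidence interval -1.67 to -0.75). By its sham mean Ankrd1 ranked 16 of all tested genes, and by its fold change it was number 87 from the lowest. Its values rest on 18648 to 58785 fragments per library.

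Ankrd23, the relative of Ankrd1 that also binds titin N2A (ENSMUSG00000067653, chr1:36530188-36536883, minus strand), was close to absent in the RA. It read 0.524, 1.01 and 0.615 FPKM in sham and 0.347, 0.478 and 0.406 FPKM in VO, from 17 to 47 fragments per library. The 3 VO values were under the 3 sham values, with means of 0.717 ± 0.259 and 0.410 ± 0.0652 FPKM, and no test was made at this depth. Its difference on the log2(FPKM + 0.1) scale was -0.64. The ratio of Ankrd1 to Ankrd23 was 2752 ± 974 in sham and 1985 ± 682 in VO, with overlap, so Ankrd1 made up nearly all of the summed level of this pair in both groups.

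Csrp3, the muscle LIM protein (ENSMUSG00000030470, chr7:48830398-48848033, minus strand), read 285, 220 and 229 FPKM in sham and 117, 152 and 159 FPKM in VO. The groups did not overlap, and VO 1 was the lowest. The means were 245 ± 35.2 and 143 ± 22.7 FPKM, a log2 fold change of -0.78 (SE 0.17, interval -1.18 to -0.38). Fhl2, the LIM-only adaptor (ENSMUSG00000008136, chr1:43123074-43196984, minus strand), was at a level close to that of Csrp3 in each library. It read 264, 219 and 245 FPKM in sham and 141, 152 and 177 FPKM in VO, again without overlap. Its means were 243 ± 22.6 and 157 ± 18.7 FPKM, a log2 fold change of -0.63 (SE 0.14). Among the members, Fhl2 and Csrp3 differed least from Ankrd1 by the root mean square difference of centred log2 values over the 6 libraries (0.37 and 0.39). They were at ranks 72 and 94 of all tested genes. Within VO they did not follow it, since VO 1 was the highest VO library for Ankrd1 and the lowest for Fhl2 and Csrp3. The measure also takes in the size of the difference between groups. The 5 genes nearest to Ankrd1 by that measure were the pseudogene Gm10275 (0.22), Spa17 (0.23), the pseudogene Rps26-ps1 (0.23), Slc12a8 (0.26) and the antisense RNA Gm44710 (0.26). Both pseudogenes are copies of other genes, and how reads of such copies were assigned was not checked.

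The Xin repeat genes were far less abundant than the LIM genes and differed less. Xirp2 (ENSMUSG00000027022, chr2:67446002-67526614, plus strand) read 21.3, 19.2 and 20.2 FPKM in sham and 11.7, 15.3 and 16.7 FPKM in VO. The sham values lay close together, and each VO value was below them. The means were 20.2 ± 1.02 and 14.6 ± 2.59 FPKM, a log2 fold change of -0.48 (SE 0.15). Xirp1 (ENSMUSG00000079243, chr9:120013755-120023598, minus strand) read 24.2, 27.9 and 31.0 FPKM in sham and 18.7, 25.1 and 20.5 FPKM in VO. Here VO 2 was above sham 1, and the log2 fold change was -0.37 (SE 0.15) between means of 27.7 ± 3.41 and 21.4 ± 3.33 FPKM. The Xirp1 locus lies inside that of Cx3cr1 on the same strand, which was read at a mean of 5.18 FPKM. The ratio of Xirp1 to Xirp2 was 1.38 ± 0.21 in sham and 1.49 ± 0.23 in VO, which differ by less than their SD.

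Other annotated genes overlap 5 of the 9 loci. Apart from Cx3cr1 at Xirp1, they were read at a mean of at most 0.333 FPKM (Gm8210 at Fhl2, Gm15270 at Ctgf, Gm13601 at Xirp2 and Gm42417 at Ankrd23), and strand use in counting is not given in the sources used here.

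The secreted matrix proteins Ctgf and Cyr61 (CCN2 and CCN1), the classical YAP targets, were at very different levels. Ctgf (ENSMUSG00000019997, chr10:24595442-24598683, plus strand) read 214, 204 and 278 FPKM in sham and 77.2, 160 and 129 FPKM in VO. The groups were separate, with VO 1 the lowest by a wide margin. The means were 232 ± 40.2 and 122 ± 42.0 FPKM, a log2 fold change of -0.97 (SE 0.28, interval -1.62 to -0.32). Cyr61 (ENSMUSG00000028195, chr3:145646976-145649981, minus strand) read 9.74, 11.9 and 22.5 FPKM in sham and 10.8, 8.66 and 10.3 FPKM in VO. A single library, sham 3, set most of its difference, and the other 5 libraries read 8.66 to 11.9 FPKM in all. The log2 fold change of Cyr61 was -0.48 (SE 0.29, interval -1.17 to 0.22) over all libraries and -0.13 without sham 3, and it was the one tested gene of the set with an unadjusted p above 0.05. The ratio of Ctgf to Cyr61 was 17.1 ± 4.81 in sham and 12.8 ± 5.69 in VO.

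Amotl2, an angiomotin relative that is both a YAP target and a binding partner that restrains YAP (ENSMUSG00000032531, chr9:102716672-102733418, plus strand), showed the smallest difference. It read 18.2, 19.2 and 21.8 FPKM in sham and 16.3, 17.2 and 16.0 FPKM in VO. The groups did not overlap, but the gap was narrow. The means were 19.7 ± 1.87 and 16.5 ± 0.634 FPKM, a log2 fold change of -0.26 (SE 0.11).

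**Figure D2:**
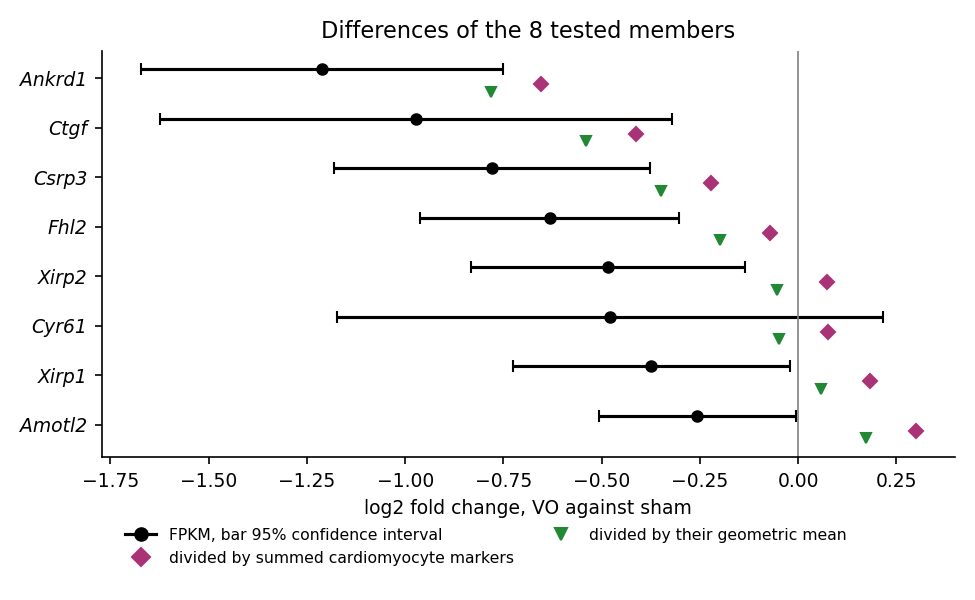
Log2 fold change of each tested gene, VO against sham, as points with the 95% confidence interval from the limma fit as bars and 0 marked by a line. Each point with a bar lies below 0, from -1.21 for Ankrd1 to -0.26 for Amotl2, and the interval of Cyr61 crosses 0. Diamonds and triangles without bars show values divided by the summed atrial cardiomyocyte markers and by their geometric mean. On these scales some genes lie above 0, among them Amotl2 (0.30 and 0.17) and Xirp1 (0.18 and 0.057).

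Across libraries, the 8 tested genes did not move by the same amount in each VO library. The mean of their centred log2 values was 0.26, 0.21 and 0.50 in sham and -0.46, -0.27 and -0.24 in VO. With any single library left out, all 8 were still lower in VO, which for the 6 genes without overlap could not have come out otherwise. VO 1 was the lowest VO library for 5 of the 8 genes, VO 2 for 2 (Ankrd1 and Cyr61) and VO 3 for 1 (Amotl2). Sham 3 was the highest sham library for 5 genes. Xist was read in sham 1, sham 3, VO 1 and VO 2 and the Y-linked Ddx3y in sham 2 and VO 3. The 8 genes were lower in VO among the 4 libraries with Xist and between the 2 with Ddx3y, 1 per group (Ankrd1 -1.27 and -1.10, Ctgf -1.13 and -0.66). For the 6 genes without overlap this direction was fixed for any split, so nothing is read from it.

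The RA identity of the tissue was clear in all libraries, but its cardiomyocyte markers differed between groups in the direction of the members. Myl7, the atrial myosin light chain, read 5531 to 8501 FPKM in sham and 2586 to 5056 FPKM in VO, and Bmp10, a factor made by RA cardiomyocytes, read 1499 to 1702 and 981 to 1402 FPKM. The summed FPKM of 10 atrial cardiomyocyte markers was 20164, 16425 and 16483 in sham and 9225, 15164 and 12195 in VO, without overlap. Of the 10 markers, 9 were lower in VO, with a median of -0.43. They did not differ alike, from -0.90 for Myl4 to -0.13 for Ryr2 and 0.12 for Pln, the one that was higher. The paper also reports Myh6 and Tnnt2 of this list as lower in VO by qRT-PCR, so the sum need not measure cardiomyocyte content alone. VO 1, the lowest library for 5 of the 8 stretch and YAP genes, was also the lowest in these markers. In bulk RNA, fewer cardiomyocytes and less RNA per cardiomyocyte cannot be told apart, and why the markers were lower was not tested.

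Divided by that marker sum, Ankrd1 was 85.9, 100.1 and 124 per 1000 in sham and 102, 42.7 and 62.9 per 1000 in VO. VO 1 then lay within the sham range, and VO 2 and VO 3 stayed below it. Csrp3 and Ctgf stayed lower in all 3 VO libraries on this scale, at 10.04 to 13.1 against 13.4 to 14.1 per 1000 for Csrp3 and 8.37 to 10.6 against 10.6 to 16.9 per 1000 for Ctgf, where the highest VO and the lowest sham library nearly met. Refitted on values divided by the marker sum, 4 of the 8 tested genes remained lower, namely Ankrd1 (-0.65), Ctgf (-0.41), Csrp3 (-0.22) and Fhl2 (-0.07). The other 4 turned positive, with Xirp2 at 0.072, Cyr61 at 0.077, Xirp1 at 0.18 and Amotl2 at 0.30. The division shifts all genes of a library alike and moved the median of all tested genes from -0.01 to 0.54, so the order of the genes against that median was fixed by it. On values divided by the geometric mean of the markers instead, a scale added after the data were seen, 6 of the 8 genes were lower, with Ankrd1 at -0.78, Ctgf at -0.54 and Csrp3 at -0.35, and the 3 VO values of Ankrd1 (1.77, 0.789 and 1.11) were then under its sham values (1.78 to 2.30), VO 1 by a narrow margin.

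Markers of other cells were read in the same way. The macrophage sum was 163 to 235 FPKM in sham and 457, 183 and 214 FPKM in VO, with 9 of 9 markers higher and the high value in VO 1. The fibroblast sum was 1052 to 1079 FPKM in sham and 1488, 1078 and 1318 FPKM in VO, and 8 of 10 markers were higher. The smooth muscle and pericyte sum was 119 to 124 FPKM in sham and 133 to 173 FPKM in VO, and the endothelial sum was 244 to 262 and 256 to 268 FPKM. The skeletal muscle sum was 9.73 to 12.1 FPKM in sham and 2.23 to 7.56 FPKM in VO, with Myh1 at 0 in all 6 libraries. The adipocyte sum was 448 FPKM in VO 3 and 3.50 to 8.05 FPKM in the other 5 libraries. The mesothelial sum was 33.5 to 112 FPKM in sham and 41.0 to 113 FPKM in VO, the lymphocyte sum 1.61 to 1.76 and 1.58 to 5.39 FPKM, and the ventricular cardiomyocyte sum 144 to 329 and 127 to 169 FPKM. The part of these cells in the differences of the stretch and YAP genes was not tested.

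**Figure D3:**
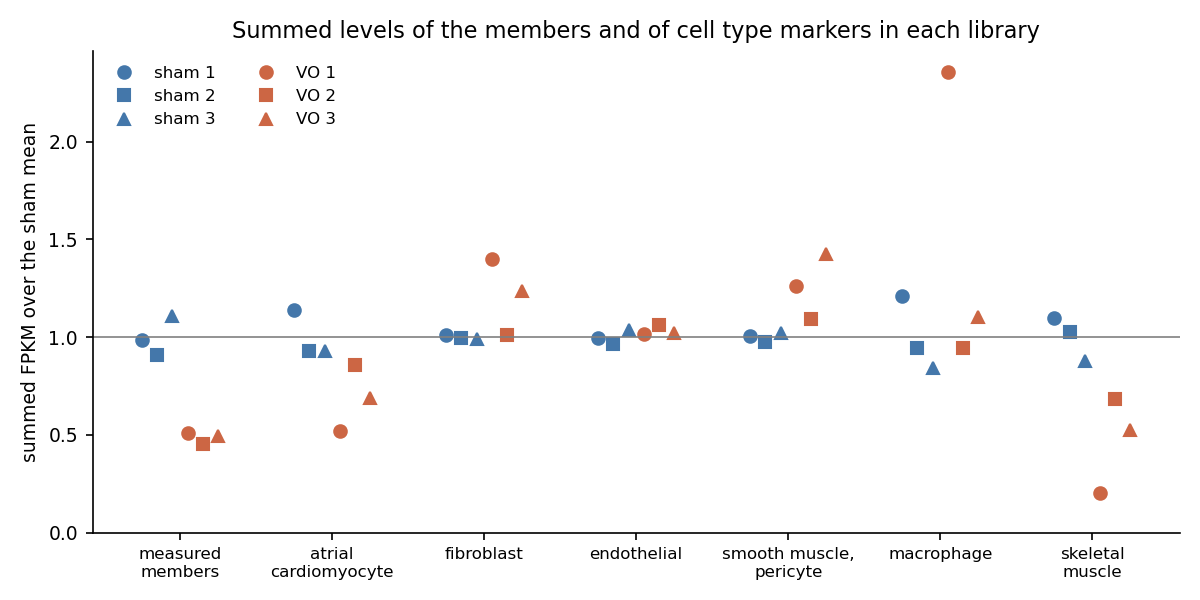
Summed FPKM of the measured stretch and YAP genes and of cell type marker lists in each library, divided by the sham mean of that list. The marker lists are atrial cardiomyocyte, fibroblast, endothelial, smooth muscle and pericyte, macrophage and skeletal muscle. The adipocyte, ventricular cardiomyocyte, mesothelial and lymphocyte lists are not shown. The stretch and YAP genes and the atrial cardiomyocyte markers are lower in all 3 VO libraries than in any sham library, and the macrophage sum is highest in VO 1.

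The upstream pathway was read at its own transcripts. Of 24 genes for the Hippo kinases, YAP, TAZ, the TEADs and their cofactors, 22 were tested, of which 19 were higher and 3 lower in VO, with a median of 0.11 beside -0.01 for all tested genes. At an unadjusted p under 0.05, 4 were higher and none lower, and none had an adjusted p under 0.05 (0.404 or above). Yap1 itself was at 17.1 ± 1.71 FPKM in sham and 17.3 ± 0.988 FPKM in VO, a log2 fold change of 0.02. Wwtr1, which encodes TAZ, was at 45.9 ± 1.54 and 48.4 ± 1.34 FPKM (0.08), and Tead1 at 15.9 ± 4.19 and 17.5 ± 1.28 FPKM (0.17). The 3 with the smallest p were Tead4 (0.67), the kinase activator Mob1a (0.43) and the kinase scaffold Sav1 (0.34). The transcripts do not show how much YAP protein was nuclear, which was not measured here.

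Other genes known as YAP and TAZ targets were split in direction. Of 20, 16 were tested, with 8 lower and 8 higher and a median of 0.005, which lay between -0.085 and 0.059 when a library was left out. The one with an unadjusted p under 0.05 was Nt5e, an ecto-nucleotidase, at 10.6 ± 2.72 FPKM in sham and 6.78 ± 0.616 FPKM in VO (-0.61, adjusted p = 0.404). Igfbp3, the most abundant of the list, read 187 to 213 FPKM in sham and 142 to 202 FPKM in VO, with overlap, and was chosen after its values were seen. The relatives of the members were mixed as well. Of 9, 7 were tested, with 3 lower and 4 higher. The LIM gene Csrp1 (-0.37) and Nov (0.43), another CCN gene, had the smallest p in each direction, Csrp2 was at -0.59 with overlap, and the list's median of 0.077 was -0.14 without VO 1.

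The structural partners of the ankyrin repeat, LIM and Xin proteins had lower values in VO. Of 16 genes of the titin spring and the Z-disc, 14 were tested and all 14 were lower, with 8 at an unadjusted p under 0.05 and a median of -0.46. None had an adjusted p under 0.05. Pdlim5, a Z-disc PDZ and LIM protein, was at 71.4 ± 7.66 FPKM in sham and 45.6 ± 3.29 FPKM in VO (-0.64, adjusted p = 0.284), and had the smallest p of the list, before Ldb3 (-0.50) and filamin C, Flnc (-0.47). By size, Tcap (-0.70) and Des (-0.68) differed more. On values divided by the cardiomyocyte marker sum, the list's median was 0.098, where the division alone moved the median of all genes to 0.54.

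SRF and its targets showed both directions. Of 20 genes, 19 were tested, with 12 lower and 7 higher, 5 of the lower ones at an unadjusted p under 0.05, and a median of -0.18 (0.38 on values divided by the cardiomyocyte marker sum). Srf was at 42.4, 55.4 and 52.9 FPKM in sham and 32.0, 36.6 and 32.3 FPKM in VO, a log2 fold change of -0.57 without overlap. The muscle actin Actc1 (-0.86) was lower too, and the smooth muscle actin Acta2 was at 164 ± 33.3 and 83.9 ± 25.8 FPKM. The mechanosensitive channels and adhesion sensors had 11 of 16 genes tested, with 10 higher, 1 lower and a median of 0.086. Among them Pkd2, a calcium-permeable channel, was higher (0.29) at an unadjusted p under 0.05.

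Of 12 other genes read in stretched or overloaded heart muscle, 11 were tested, with 5 lower and 6 higher and a median of 0.058. That median was -0.18 without VO 1, -0.077 without sham 1, -0.37 among genes of at least 5 FPKM and -0.053 among genes of at least 0.1 FPKM. Nppb, the natriuretic peptide of stretched cardiomyocytes, fell by 1.97 on the log2 scale (adjusted p = 0.042, limma) and was the single gene of all 12627 under the threshold in that fit. The paper, which used DESeq2 with an adjusted p under 0.05, reports far more genes that differed between sham and VO. The Nppb call was kept in 10 of 21 alternatives and lost in 11, among them each one that left out a library, the fit with no filter, quantile normalization and the replicate block (adjusted p = 0.360). The fit on FPKM as deposited, counted among the 10, only repeated the main fit. Myh7, the slow myosin heavy chain (-0.66), and Rcan1, a calcineurin target (-0.28), were lower in VO without overlap. Lox (0.78), which cross-links collagen, and Tnc (1.11), a matrix protein of remodelling tissue, were higher in VO without overlap. Their adjusted p-values did not pass the threshold.

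**Figure D4:**
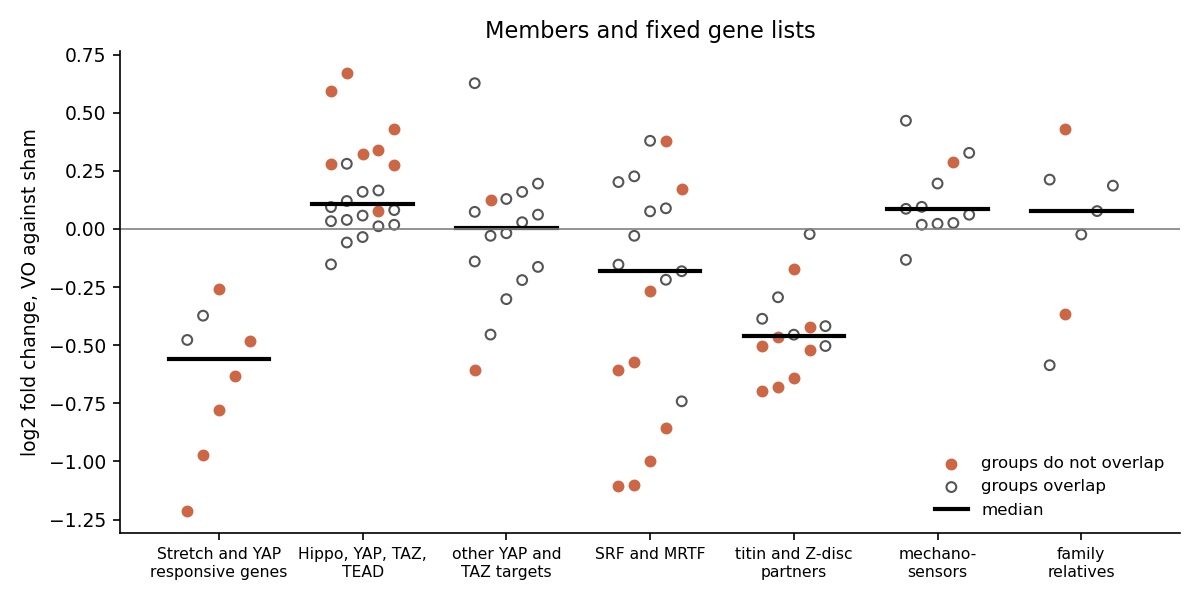
Log2 fold change, VO against sham, of every tested gene of the stretch and YAP set and of other gene lists, with 1 point per gene and the list median as a line. The list of other genes read in stretched or overloaded heart muscle, with Nppb, is not shown. The titin and Z-disc list lies below 0 like the stretch and YAP genes, and the Hippo list lies mostly above 0.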

How the data were processed

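RNA-seq libraries from right atria (3 sham and 3 VO) were made with the NEBNext Ultra kit and sequenced as paired reads, and strand use in counting was not given in the sources used here. The submitters' processing notes name HISAT2 2.0.5, featureCounts 1.5.0-p3 and StringTie 1.3.3b, and GRCm38. The authors deposited FPKM per gene, computed from gene length and counts. Values times length were whole multiples of a library's step for 100% of values (tolerance 0.01), which gave 15963082 to 17237903 fragments per library. The last line of the table (1 gene) was incomplete and was left out.

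FPKM was scaled by the median of ratios, which left it unchanged because all factors of the deposited values were already 1.00. The deposited values were not scaled by the fragment total alone. At 1 FPKM a library held 15.6 fragments per kb in sham 1 and 18.1 in VO 1, with totals of 16494342 and 16852482 fragments. Genes were filtered to a mean of at least 1 FPKM. The 12627 genes left were fitted as log2(FPKM + 0.1) with limma 3.58.1 in R 4.3.3 (trend, two-sided, Benjamini-Hochberg over all tested genes, threshold 0.05) since the deposited unit is FPKM. The fit was also run on simulated data with planted fold changes. There the genes were independent with a common spread, without differences in cell content between libraries. An exact permutation test of 3 against 3 cannot go below 0.1. Voom on the recovered fragments was an alternative. Positions of 8 of the 9 measured members were identical to those of GENCODE vM21 (Ankrd1 differed), and sequences are from RefSeq.

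The members and lists were chosen with earlier results of these data known. Text names each member, Yap1, Wwtr1, Tead1, up to 3 genes per list and direction with the smallest unadjusted p under 0.05 and no overlap, the 5 genes most like Ankrd1, and defining markers. Igfbp3, Csrp2, Tcap and Des, and Myl4, Ryr2 and Pln among the markers, were named outside this rule with their values known.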

Additional observations from a re-analysis of the deposited data

How the results depend on the processing

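The 8 tested members were fitted under 21 alternatives (20 planned), and 162 of 168 fold changes kept their direction. Of these 168, 64 were identical to the reported values, because 8 alternatives change the test or the genes tested and not the fold change. The other 104 could differ, but not all of them could turn. For the 6 members without overlap, leaving out a library or changing the pseudocount could not reverse the direction. Nothing is read from the tally, since the genes were picked from this contrast. The 6 fold changes that reversed came from division by atrial cardiomyocyte markers. By the marker sum, Xirp1 was 0.18, Xirp2 0.072, Cyr61 0.077 and Amotl2 0.30, and 4 members remained lower in place of 8. By the geometric mean of the markers, an alternative chosen after seeing the data, Xirp1 was 0.057 and Amotl2 0.17 and the other 6 were lower (Ankrd1 -0.78), with the median of all genes at 0.41. These follow from the division, since the markers were lower in VO. No member had an adjusted p under 0.05 in any alternative, and the lowest was 0.126 (Ankrd1). Leaving out each library in turn gave fold changes ranging from -1.35 to -1.08 for Ankrd1, -0.87 to -0.64 for Csrp3, -0.72 to -0.56 for Fhl2, -0.59 to -0.33 for Xirp2, -0.49 to -0.28 for Xirp1, -1.20 to -0.67 for Ctgf, -0.73 to -0.13 for Cyr61 and -0.31 to -0.18 for Amotl2.

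Deviations from the group mean correlated across genes at -0.108, 0.0112 and -0.0292 between the sham and VO libraries of the same replicate number. No source used here says what these numbers mark, so whether they stand for a shared litter or day is not known. With the replicate block, Ankrd1 remained at -1.21 with an adjusted p of 0.601 (limma). At an unadjusted p under 0.05, 608 genes were then lower and 324 higher, in place of 1020 and 491. Of the members, 6 were among the lower ones, in place of 7. That count was 5 with TPM scaling and 8 without sham 1. It was 1 after division by the marker sum and 2 after division by the geometric mean. With a mean of at least 5 FPKM, 821 genes were lower and 229 higher. Of 168 list medians under an alternative, 39 moved by more than the spread between libraries. Ankrd23 had 17 to 47 fragments per library, which limits what can be said of its difference.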
